A study of Mus musculus with 4 samples.

Results

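Oxidative phosphorylation subunit genes were followed across H3K27ac peaks of the mouse left cerebral cortex. H3K27ac, the acetylation of lysine 27 of histone H3, marks active promoters and enhancers. The members were nuclear protein-coding genes chosen by symbol. Symbols were taken that begin with Nduf, a letter (a, b, c, s or v) and a digit. Also taken were those beginning with Cox4 to Cox8 and a letter from a to c, with Atp5 or with Uqcr, and Sdha to Sdhd. The rule found 83 gene models with 82 symbols among 21755 protein-coding genes, namely 37 of complex I, 4 of complex II, 8 of complex III, 16 of complex IV and 18 of complex V. Atp5o has 2 models in the annotation. The rule was not based on any measured value, but it was set with earlier results of these data known.

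The tissue came from adult female B6CASTF1/J mice, hybrids of the C57BL/6J and CAST/EiJ strains, at 2 months of age, with no treatment or other genotype in the series. The 4 samples were 2 pools of 4 biosamples each, pool I and pool J, with 2 technical libraries per pool. Each pool gave 1 peak list and both pools together gave the replicated list used below, so there was no second group and no test between conditions. Values are given for the replicated list and for each pool, and the 2 pools are the only spread that can be shown. The lists carry no read numbers, so the depth behind each value is unknown.

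Oxidative phosphorylation takes place in the inner mitochondrial membrane. Complex I (NADH dehydrogenase) and complex II (succinate dehydrogenase) pass electrons to ubiquinone, complex III (cytochrome bc1) passes them on to cytochrome c, and complex IV (cytochrome c oxidase) passes them to oxygen. Complexes I, III and IV pump protons, and complex V (ATP synthase) uses the gradient to make ATP. In the brain this process supplies most of the ATP that synaptic activity consumes. Most subunits are made in nearly every cell, while several subunits of complex IV have paralogs that are known from heart and skeletal muscle or from testis.

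A promoter peak lay within 1 kb of any annotated transcription start site (TSS) of the gene. Its signal is the value given by the authors' peak caller, and how that scale was normalized is unknown here. Where a gene had several promoter peaks, the one with the highest signal was taken. The percentile of a gene is the percent of all 21755 coding genes with a lower promoter signal, with a signal of 0 for genes that had no promoter peak. In bulk tissue, a mark present in few cells and a weak mark in many cells cannot be told apart.

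Nearly all members carried the mark at their promoter. A promoter peak was found at 75 of the 83 members (90.4%) in the replicated list, against 58.5% of all coding genes. The same 75 were marked in the list of pool I, where 58.2% of coding genes were, and in the list of pool J, where 55.2% were. All 75 promoter peaks reached a −log10 q of at least 5. The median percentile over all 83 members, unmarked ones included, was 83.2 in the replicated list, 85.4 in pool I and 82.2 in pool J. Of the members, 65 lay above the median percentile of coding genes that had a promoter peak, 70.7. A signal above that of at least 90% of coding genes was found at 29 members (34.9%), against 9.97% of all coding genes.

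The 8 members without a promoter peak were Cox6a2, Cox7a1, Cox8b, Cox6b2, Cox7b2, Cox8c, Ndufa4l2 and the second model of Atp5o. The first 7 are the isoforms listed here as restricted, being known from striated muscle, from testis or, for Ndufa4l2, from hypoxia. That list was made with earlier results of these data known. Whether some cells of the cortex express these isoforms was not tested. The 8th, ENSMUSG00000116933.1, starts 4705 bp from the start of the main Atp5o model (ENSMUSG00000022956.11), whose promoter was marked with a signal of 12.5.

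The 10 strongest promoters belonged to complexes I, II, IV and V and none to complex III. Ndufb2, an accessory subunit in the membrane arm of complex I, had the highest signal, 26 in the replicated list, 29 in pool I and 22.2 in pool J (chr6:39592082-39593584). Atp5c1, the gamma subunit that forms the rotating stalk of ATP synthase, followed with 23.8, 29.6 and 18.7 (chr2:10079295-10080913). These members were the highest of the set in the replicated list and lay above the 98th percentile in every list. Atp5j, coupling factor 6 of complex V, had 20.8, but its peak also covers the start of Gabpa. Ndufa4, named as a complex I subunit and now known as a subunit of complex IV, had 20.2. Ndufs1, the largest subunit of complex I and a carrier of iron-sulphur clusters, had 19.4 in a peak shared with Eef1b2. Cox8a had 18.3, Ndufb7 and Ndufc1 17.9 each, Sdhb 17.8 and Cox5a 17.6.

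**Figure D1:**
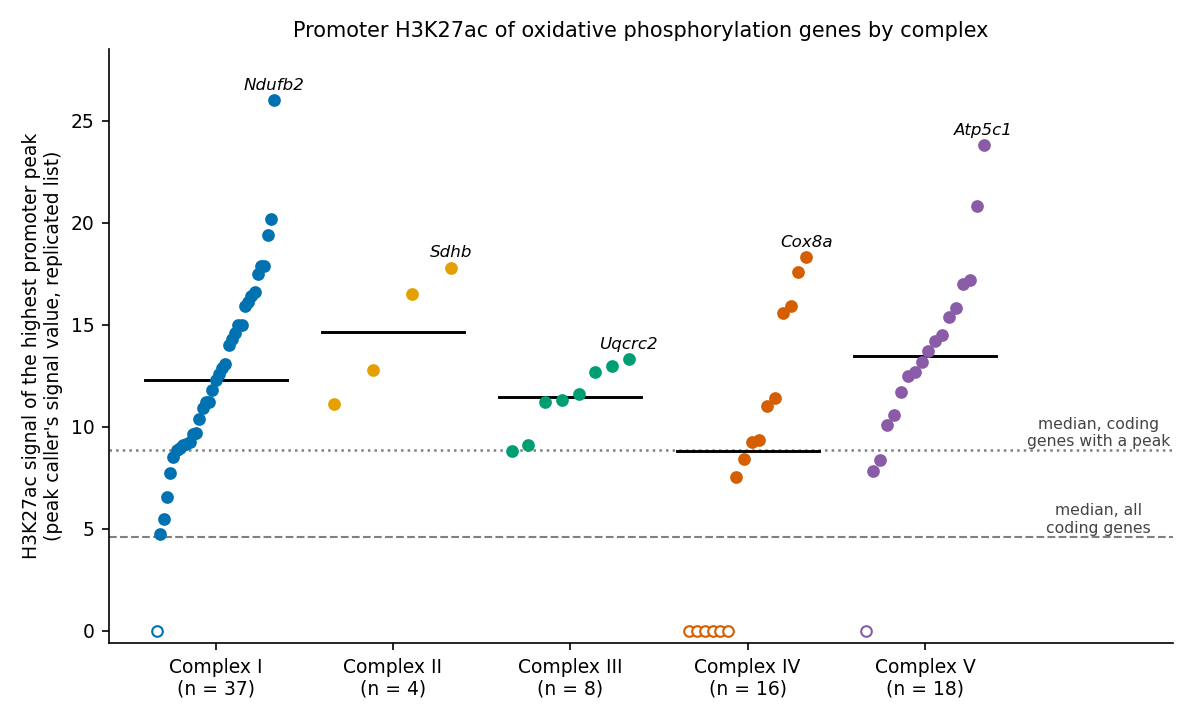
Signal of the highest promoter peak of each member (points; y axis, peak caller's signal value in the replicated list), ordered within each complex, with the complex median as a black bar. Open circles at 0 are the 8 members without a promoter peak, 6 of which belong to complex IV, and the grey lines mark the median of all coding genes (4.61) and of coding genes with a promoter peak (8.86).

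By complex, the median percentile over all members was 85.2 for complex I, 90.7 for complex II, 82 for complex III, 70.7 for complex IV and 88.8 for complex V. Complexes were taken from the symbols, so Ndufa4 (percentile 98.1) is counted in complex I here and not in complex IV. The low value of complex IV went with its 6 unmarked isoforms. Over its other 10 members the median was 80.9, 85.6 in pool I and 77.2 in pool J, and over complex I without Ndufa4l2 it was 85.7, 83.2 and 80.2. Without the restricted isoforms, complex IV was thus below complex I in the replicated list and pool J but above it in pool I. In the pool lists the medians over all members ran from 68.2 (complex IV) to 90.4 (complex II) in pool I and from 69.9 (complex IV) to 88.2 (complex V) in pool J. Over all members complex IV was lowest in all 3 lists, while complex I moved from 82.9 in pool I to 78.2 in pool J. The groups are small and of unequal size, and their differences were not tested.

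In complex I, 36 of 37 members had a promoter peak. The 7 nuclear core subunits, which carry the flavin, the iron-sulphur clusters and the quinone site, had a median percentile of 90.9, against 82.2 for the 30 accessory members. Ndufs1 led the core with 19.4, with Ndufs3 at 15, Ndufv2 at 14.3, Ndufs8 at 13.1 and Ndufs7 at 11.2. Ndufv1, which binds NADH and the flavin, was the lowest core subunit at 5.48, with 7.29 in pool I and 5.07 in pool J. Its peak was 578 bp wide (chr19:4012170-4012747), and its signal was the second lowest of all marked members. The lowest was Ndufa1, an X-linked accessory subunit, with 4.76 in the replicated list, 6.14 in pool I and 3.53 in pool J (chrX:37191016-37192511). In the replicated list these lay at percentiles 54 and 50.6, just above the median of all coding genes. In pool J, Ndufa1 lay below that median, at 47.4.

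All 4 genes of complex II, which is also the succinate dehydrogenase of the citric acid cycle, were marked. Sdhb, the iron-sulphur subunit, had a signal of 17.8 with 20.7 in pool I and 14.7 in pool J. Sdhc, a membrane anchor, had 16.5 with 19.9 and 13.1. Sdha, the flavoprotein, had 12.8 with 14.9 and 9.63, and Sdhd, the other membrane anchor, 11.1 with 11 and 9.07. The order of the 4 genes was the same in both pools.

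All 8 members of complex III were marked, with signals from 8.84 (Uqcr11, a small subunit) to 13.3 (Uqcrc2, a core subunit) and percentiles from 70.7 to 88.2. In the replicated list none of the 8 lay above at least 90% of coding genes, a level that 9.97% of all coding genes reached. That level was reached by 15 of 37 members of complex I and 2 of 4 of complex II. It was also reached by 4 of 16 in complex IV and 8 of 18 in complex V. With 8 genes, a count of 0 is near the share over all coding genes. In pool I, Uqcr10 reached that level, at percentile 92.4. Uqcrfs1, the Rieske iron-sulphur protein, had 9.12 and was the only marked member whose signal was not higher in pool I (7.42) than in pool J (8.61).

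In complex IV the 10 members outside the restricted isoforms were all marked. Cox8a (18.3), Cox5a (17.6), Cox6c (15.9) and Cox7a2l (15.6), a factor that joins complexes III and IV into supercomplexes, lay above the 93rd percentile. Cox7b, which is X-linked, was lowest with 7.56, 9.41 in pool I and 5.75 in pool J. In the replicated list, peaks of complex IV were also narrow, with a median width of 853.5 bp over these 10 members, against 1265 bp over all marked members. At Cox6a1, Cox6b1, Cox7a2 and Cox7b, pool I had the 2 promoter peaks of the replicated list joined under 1 peak. Their widths in pool I were 1502, 1012, 1474 and 1420 bp, where the median over all marked members was 1435 bp. In pool J the same genes had widths of 608, 594, 541 and 719 bp, where the median over all marked members was 979 bp. Of the 10 members, only Cox5a (1688 bp), Cox5b (1204 bp) and Cox7a2l (1801 bp) lay above that median in pool J. The narrow width is therefore described for the replicated list and pool J, and not for pool I.

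In complex V, 17 of 18 members were marked. The 5 subunits of the catalytic F1 part, Atp5a1, Atp5b, Atp5c1, Atp5d and Atp5e, had signals of 13.2, 17, 23.8, 12.7 and 14.2. The c subunit that forms the proton-driven ring is encoded by 3 genes with the same mature protein, and all 3 promoters were marked. Atp5g2 had 15.8 (19.2 in pool I, 14.6 in pool J), Atp5g3 14.5 (15.4, 13.6) and Atp5g1 10.1 (15.9, 7.4). Atp5g1 was lowest of the 3 in the replicated list and in pool J, but in pool I it lay between the other 2, so its place is not settled by these pools. Atp5k, the e subunit of the membrane part, was the lowest marked member of complex V with 7.84. Atp5s (8.36) is caught by the rule but is not counted among the core subunits of the enzyme.

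The restricted isoforms and their broadly expressed partners were separated completely. Cox6a2, Cox7a1 and Cox8b replace Cox6a1, Cox7a2 and Cox8a in heart and skeletal muscle, and none of the 3 had a promoter peak in the replicated, pool I or pool J list. Their partners had signals of 9.26, 8.4 and 18.3. The testis isoforms Cox6b2, Cox7b2 and Cox8c were unmarked, while Cox6b1 had 9.36 and Cox7b 7.56. Ndufa4l2, which is known to be induced by hypoxia, was unmarked beside Ndufa4 with 20.2. The same held for a pair of genes that the rule does not catch. Cox4i2, known from lung, and Cyct, the testis cytochrome c, had no promoter peak, and Cox4i1 and Cycs had 11.6 and 11.7. Of 4 striated muscle markers only Myh7 had a promoter peak (3.57), 0 of 3 testis markers had one, and all 6 markers of cortical neurons did.

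**Figure D2:**
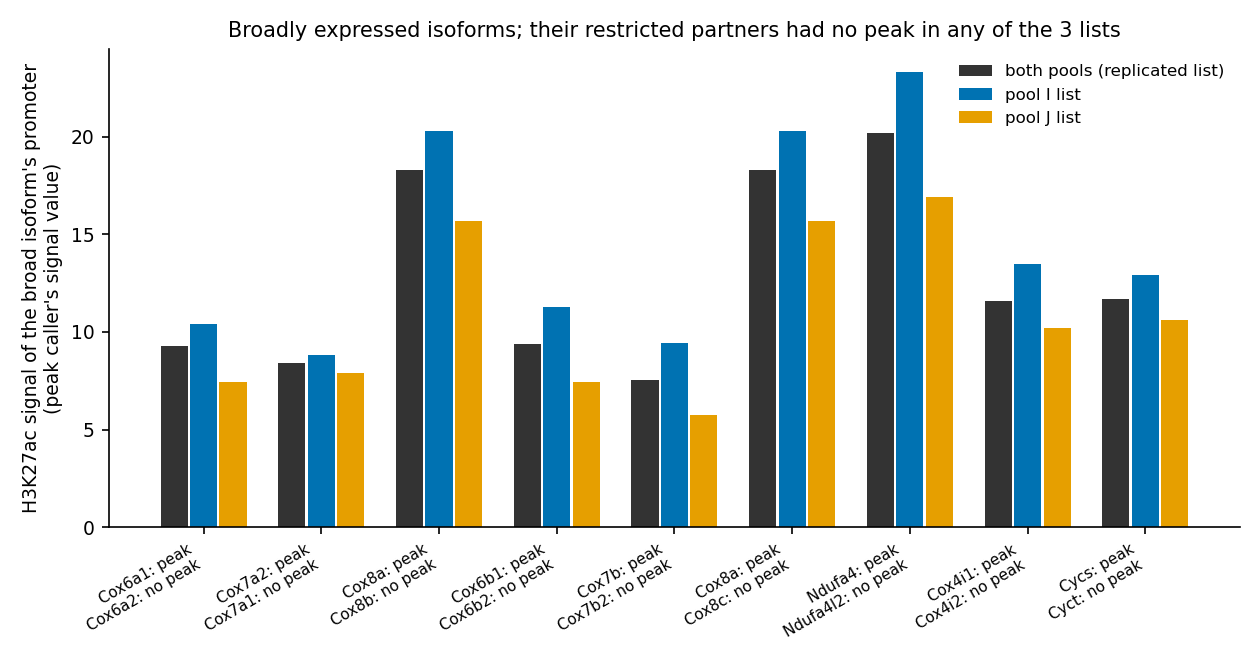
Promoter signal of each broadly expressed isoform (bars; y axis, peak caller's signal value) in the replicated list, pool I and pool J. Each is paired on the x axis with its restricted partner, which had no promoter peak in any of the 3 lists, and the last 2 pairs are outside the rule.

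Peaks nearest to the unmarked isoforms lay at very different distances. For Cox7a1 the nearest peak was 2060 bp from the start (signal 3.37), and for Ndufa4l2 it was 2044 bp away (4.06). With a promoter window of 2500 bp these 2 would count as marked. For the others the nearest peak was 13919 bp away (Cox6a2), 17517 bp (Cox8b), 11009 bp (Cox6b2), 20010 bp (Cox8c) and 54620 bp (Cox7b2). Ndufa4l2 also had 4 distal peaks, the strongest with a signal of 9.73 at a distance of 2971 bp (chr10:127511655-127512443). Of the 6 muscle and testis isoforms only Cox7a1 had a distal peak assigned to it in the replicated list, and it had 1.

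The promoters of the 3 muscle pairs differ in their letters as well as in the mark, and they are shown for that contrast, from 150 bases before to 30 bases after the start of each gene on GRCm38. Capitals mark matches to the searched motifs. The match in Cox6a1 at its 5′ end is to the NRF1 motif, CCGCCC is the SP motif read on the opposite strand, CTTCCGG is the ETS motif read on the opposite strand, and TATAAA is the TATA motif.
Cox6a1 (chr5:115348952-115349131, minus strand): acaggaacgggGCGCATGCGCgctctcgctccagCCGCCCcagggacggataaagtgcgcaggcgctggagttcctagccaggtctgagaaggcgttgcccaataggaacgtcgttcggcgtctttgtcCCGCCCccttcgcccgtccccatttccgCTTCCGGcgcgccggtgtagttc
Cox6a2 (chr7:128206358-128206537, minus strand): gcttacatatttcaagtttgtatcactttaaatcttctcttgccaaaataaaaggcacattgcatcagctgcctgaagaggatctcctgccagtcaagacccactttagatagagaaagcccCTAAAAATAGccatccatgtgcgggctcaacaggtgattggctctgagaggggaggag
Cox7a2 (chr9:79759849-79760028, minus strand): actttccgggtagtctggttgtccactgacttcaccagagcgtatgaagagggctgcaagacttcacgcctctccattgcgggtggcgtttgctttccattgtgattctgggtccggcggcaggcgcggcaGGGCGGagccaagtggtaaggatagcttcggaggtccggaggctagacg
Cox7a1 (chr7:30183994-30184173, plus strand): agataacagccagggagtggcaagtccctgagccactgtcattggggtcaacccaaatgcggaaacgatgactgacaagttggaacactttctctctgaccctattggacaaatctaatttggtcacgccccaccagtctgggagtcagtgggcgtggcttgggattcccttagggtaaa
Cox8a (chr19:7217587-7217766, minus strand): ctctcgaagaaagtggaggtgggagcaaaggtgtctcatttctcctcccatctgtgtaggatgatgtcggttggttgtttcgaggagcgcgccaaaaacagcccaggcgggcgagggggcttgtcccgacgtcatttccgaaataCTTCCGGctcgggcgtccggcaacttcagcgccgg
Cox8b (chr7:140900417-140900596, minus strand): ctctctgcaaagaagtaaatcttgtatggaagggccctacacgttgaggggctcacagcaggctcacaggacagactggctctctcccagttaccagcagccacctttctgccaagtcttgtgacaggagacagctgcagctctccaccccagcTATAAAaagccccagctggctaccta
The capitals in Cox6a2 are a match to the MEF2 motif, which was added to the search after this promoter had been read. Each window is 180 bases. Cox6a1 holds 22 CG dinucleotides and Cox6a2 1, Cox7a2 13 and Cox7a1 4, and Cox8a 16 and Cox8b 1. The ETS motif occurs in Cox6a1 and Cox8a of these 6, and the TATA motif in Cox8b, where it lies just inside the annotated start.

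The same window is shown for the members with the highest signal, Ndufb2 and Atp5c1. Capitals in Ndufb2 mark a match to the cyclic AMP response element (CRE), and the Atp5c1 window held none of the searched motifs.
Ndufb2 (chr6:39592424-39592603, plus strand): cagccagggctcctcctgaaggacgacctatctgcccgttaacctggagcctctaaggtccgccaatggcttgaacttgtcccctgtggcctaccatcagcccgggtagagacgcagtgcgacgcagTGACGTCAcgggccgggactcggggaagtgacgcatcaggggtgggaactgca
Atp5c1 (chr2:10080481-10080660, minus strand): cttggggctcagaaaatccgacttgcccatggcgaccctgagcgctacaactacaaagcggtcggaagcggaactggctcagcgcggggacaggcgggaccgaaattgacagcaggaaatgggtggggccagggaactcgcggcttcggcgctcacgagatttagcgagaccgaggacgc
They hold 12 and 18 CG dinucleotides, more than any of the 3 muscle isoforms.

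CpG content followed the same division. Within 500 bp of the 5′ start the ratio of observed to expected CpG had a median of 0.71 over the members, 0.278 over the 7 restricted isoforms (0.186 to 0.467) and 0.576 over all coding genes. Among coding genes with a ratio of 0.6 to 0.8, 87% had a promoter peak, and all 45 members in that range did. Among those with a ratio of 0.2 to 0.4, 27% had one, and 1 of 5 members did. That member was Atp5j2, the f subunit of complex V, with a ratio of 0.22 at its 5′ start and a signal of 13.7. Cox7b2 (0.467, unmarked) and Cox7b (0.482, signal 7.56) had nearly the same ratio and differed in the mark. Whether CpG content has a part in the difference between the isoforms was not tested.

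**Figure D3:**
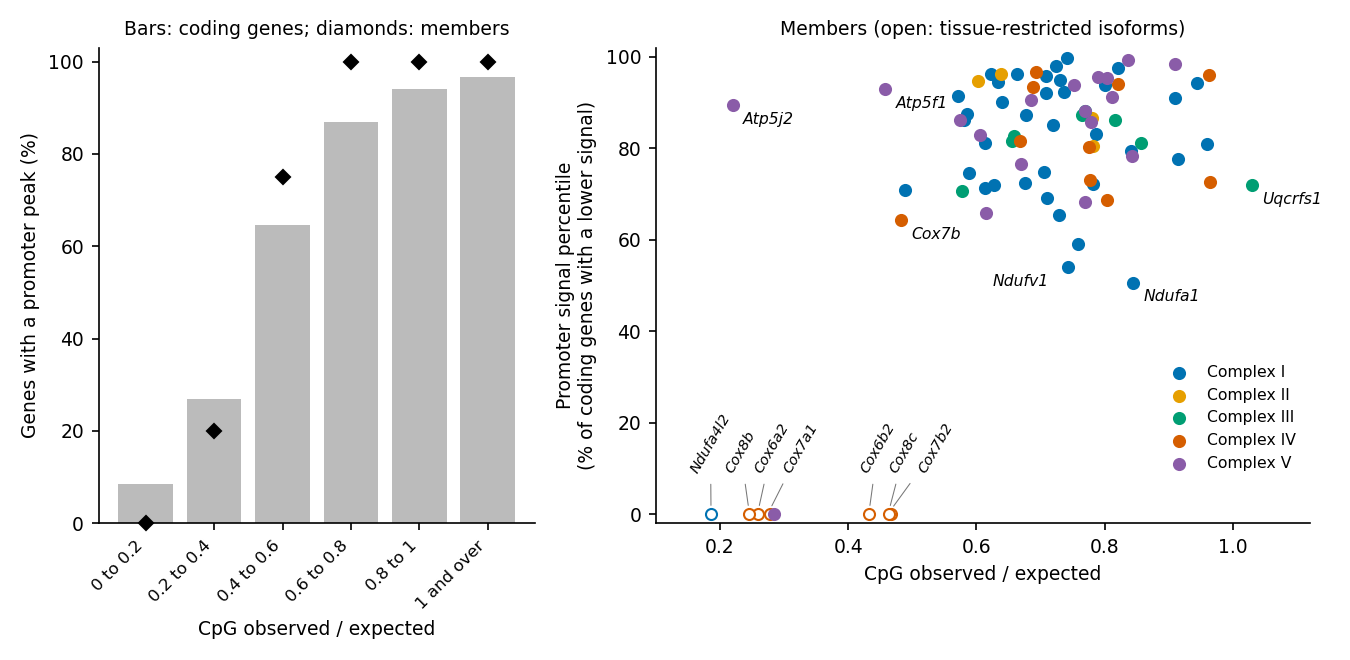
Left, percent of coding genes with a promoter peak (grey bars) and of members (diamonds) by observed over expected CpG within 500 bp of the 5′ start. Right, promoter signal percentile of each member against the same ratio, with restricted isoforms as open circles at 0, at ratios from 0.186 to 0.467, and the second Atp5o model as the filled circle at 0.

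Motifs of factors known to act at these genes were searched on both strands in 300 bases around the 5′ start, from 250 before to 50 after. Overlapping matches were allowed, and a match is a run of letters, not a bound site. For 67 members a RefSeq start could be matched by symbol, and it lay within 50 bp of the start used here for 45 of them, so these windows and the printed ones depend on the annotation. NRF1 (GCGCATGCG), the motif of a respiratory gene activator, was found in 6 members, against 2.24% of all coding promoters. They were Atp5g2, Atp5k, Atp5l, Cox6a1, Ndufa11 and Uqcr11. The ETS motif (CCGGAAG), which GABPA reads, was found in 15 members (18.1%) against 11.3%, and among coding genes with a promoter peak in 17%. YY1 (AANATGGCG) was found in 5 members against 3.01%. ERR (TNAAGGTCA), the motif of oestrogen-related receptors, was found in 4, Atp5g3, Ndufb4, Ndufs1 and Sdhd, against 1.14%. CRE (TGACGTCA) was found in 5 against 2.52%, and SP (GGGCGG) in 34 (41%) against 45.3%. The TATA box motif (TATAAA) was found in 10 members (12%) against 12.5% of coding promoters. The MEF2 motif was found in Cox6a2 alone of the members, against 2.77%.

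None of the 7 restricted isoforms held the NRF1, ETS, YY1, ERR or CRE motif. Over all coding promoters the shares were 2.24%, 11.3%, 3.01%, 1.14% and 2.52%, so none among 7 genes is near that background. SP occurred in 4 of the 7 and TATA in 2. Among coding genes with a promoter peak the share was 63.4% for SP, against 40% of the 75 marked members, and 6.64% for TATA, against 9.33%. It was 3.55% for NRF1, 4.6% for YY1, 0.778% for ERR and 3.56% for CRE. With 4 to 6 members each, these shares rest on few genes. No list was tested for enrichment.

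Sharing of promoters was common. Of the members, 25 (30.1%) had the start of another gene head to head within 1000 bp, against 14.2% of coding genes. All 25 were marked, and among genes with a promoter peak the shares were 33.3% of members and 21.8% of coding genes. For 22 (26.5%) that gene was protein-coding, against 9.08%. In 15 cases the starts were within 100 bp of each other, and in 3 within 10 bp. Ndufs1 and Eef1b2, a translation elongation factor, start 3 bp apart, as do Ndufb11 and Rbm10, and Ndufa7 and the ribosomal protein gene Rps28 start 10 bp apart. Ndufs6 starts 51 bp from Mrpl36, a mitochondrial ribosomal protein, and Sdhd 98 bp from Timm8b, a factor of mitochondrial protein import.

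Atp5j and Gabpa form a particular case, since GABPA is itself known as an activator of respiratory chain genes. Their starts lie 686 bp apart, and 1 peak of 2508 bp with a signal of 20.8 (24.2 in pool I, 16.9 in pool J) covers both (chr16:84834085-84836592). In complex I, 11 of 37 members had a head-to-head neighbour, and in complex II 3 of 4. The counts were 4 of 8 in complex III, 6 of 18 in complex V and 1 of 16, Cox6a1, in complex IV. Over all coding genes the share was 14.2%. None of the restricted isoforms of complex IV had such a neighbour. The highest promoter peak of 32 of the 75 marked members lay near the start of another gene, so its signal need not be the member's own. The median signal was 12.7 for these 32 and 12.6 for the other 43.

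The mark lay mainly just inside the gene. The summit of the highest promoter peak was downstream of the nearest annotated start in 62 of 75 members (82.7%), with a median offset of 164 bp (quartiles 104 and 216.5). Over coding genes with a promoter peak, 66.8% of summits were downstream, with a median of 128 bp. A second promoter peak was called at 27 members, or 36% of those marked, against 42.5% of coding genes with a promoter peak. The other 48 had 1. Sdhb, Cox7a2 and Uqcrfs1 are examples with a main peak after the start and a lower one before it. In the pool I list, Sdhb had a single peak of 3463 bp where the replicated list had 918 bp and the pool J list 815 bp. Of these 27 members, pool I had both peaks joined under 1 peak at 12 and pool J at 4, so width at such promoters depended on how neighbouring peaks were called.

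**Figure D4:**
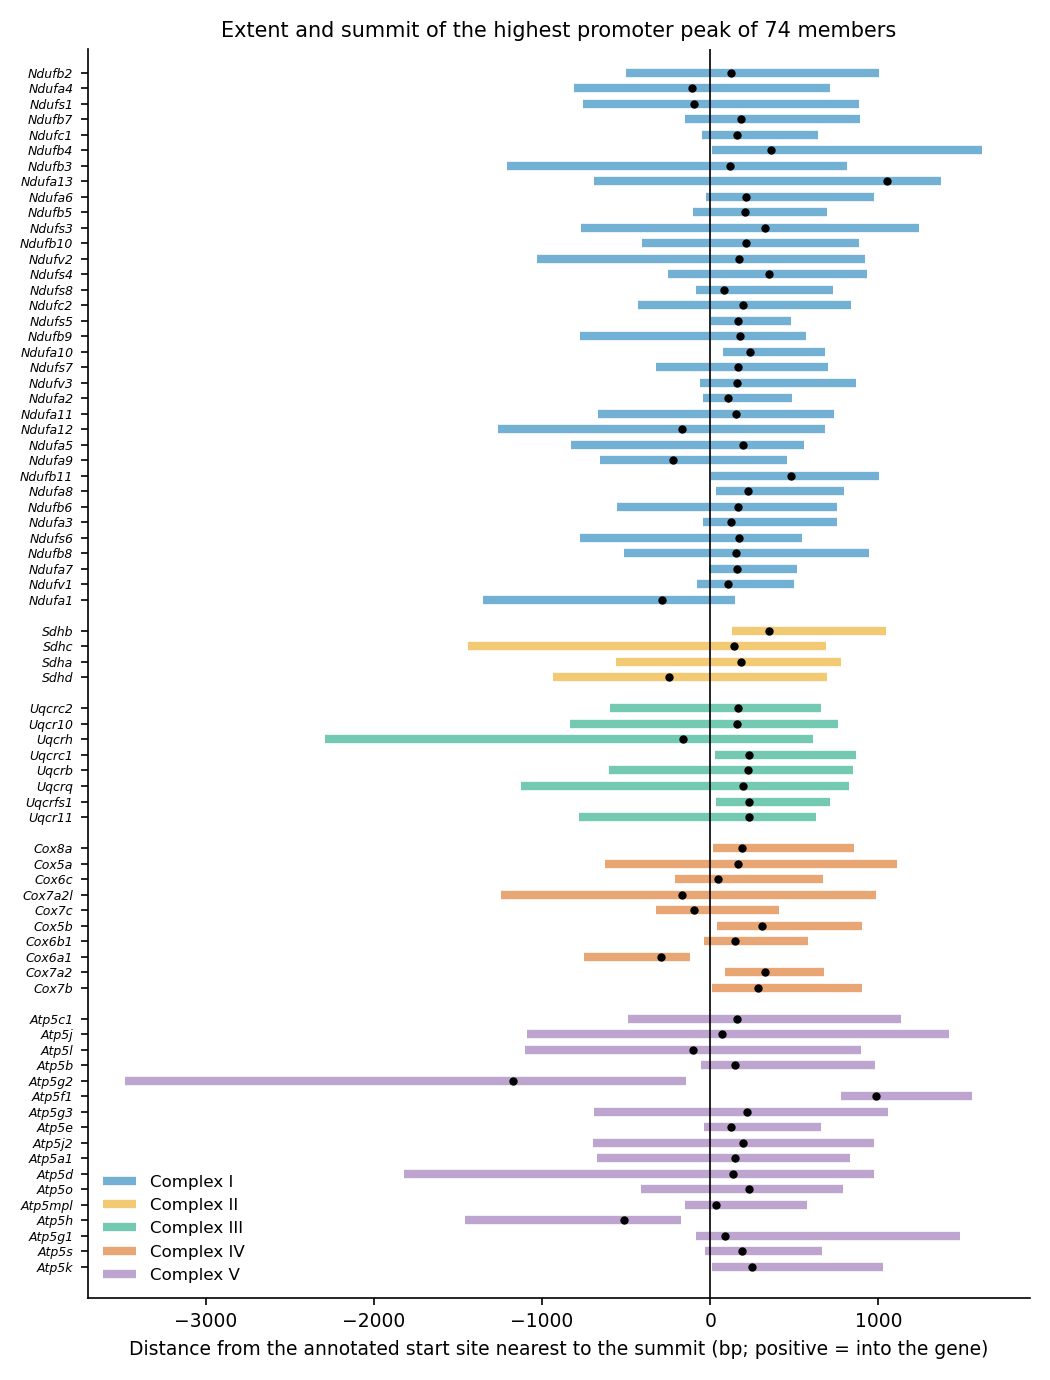
Extent (bars) and summit (black dots) of the highest promoter peak of 74 of the 75 marked members, by complex and in order of signal, as distance in bp from the annotated start nearest to the summit, with positive values inside the gene. The quartiles of the summit offsets are 104 and 216.5 bp inside the gene, and the peaks of Atp5g2, Uqcrh and Atp5d reach far upstream.

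For a few members the highest peak lay away from the start. In Ndufa13 (16.1) its summit was 1050 bp inside the gene and the peak also lay near the starts of Tssk6 and Yjefn3. Its peak nearest to the start had a signal of 5.09. In Atp5f1, the b subunit of complex V, the highest peak (15.4) was 984 bp inside the gene and near the start of Wdr77, and the nearest one had 6.96. In Atp5g2 the highest peak (15.8) had its summit 1173 bp upstream, beside a peak of 13.3 at 214 bp inside the gene. The median percentile of all members was 84.2 when the peak with the nearest summit was used for every gene.

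Promoter peaks of the members were not unusually broad. The median width was 1114 bp over all members and 521 bp over all coding genes, with 0 for unmarked genes. Over marked genes alone the medians were 1265 and 1138 bp. A width of at least 2000 bp was found at 9 members (10.8%), against 10.7% of coding genes, with unmarked genes included. Among marked genes it was found at 9 of 75 members and 2328 of 12719 coding genes, a smaller share of the members. The widest peaks belonged to Atp5g2 (3333 bp), Uqcrh (2904 bp), Atp5d (2791 bp), Atp5j (2508 bp) and Cox7a2l (2234 bp). Uqcrh, the hinge protein of complex III, and Atp5d, the delta subunit, kept wide peaks in both pools, with 3188 and 2446 bp for Uqcrh and 2958 and 2152 bp for Atp5d. Across the 75 marked members, signal and width had a Spearman rho of 0.371, given as a description over genes measured in the same libraries, against 0.517 over coding genes.

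Distal peaks were few around most members. A distal peak lay over 1 kb from any start and was assigned to the coding gene with the nearest start within 100 kb, so the gene is its neighbour and need not be its target. At least 1 was assigned to 27 members (32.5%), against 39.6% of coding genes, and the mean was 1.01 per member against 1.85. From pool J alone the means were 0.578 and 1.16, and at a −log10 q of at least 5 they were 0.458 and 0.789. The members also had shorter stretches of genome nearest to them, with a median of 17.8 kb against 46.5 kb. Per Mb of that territory, the members had 25.2 distal peaks and coding genes 26.3. Among genes with a promoter peak, however, the values per Mb were 25.6 for members and 36.1 for coding genes. The means per gene were then 1.04 and 2.74, so against marked genes the members had fewer distal peaks by both measures. When every distal peak within 100 kb was counted whichever gene was nearest, the order turned, with a mean of 6.67 per member against 5.74. The lower count by nearest gene thus did not hold under this other way of counting.

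Of the 84 distal peaks, 13 were assigned to Ndufb4, 8 to Ndufa10, 6 each to Ndufb6 and Ndufb9 and 5 to Cox7a2l. Ndufb4, an accessory subunit of complex I, had 12 in pool I and 6 in pool J. Its strongest distal peak was 30575 bp from the start, with a signal of 17.6 (chr16:37684283-37685707), just above the 17.5 of its own promoter. A neighbouring peak had a signal of 12 (chr16:37682017-37684196), and both lay between genes. The next strongest distal peak of the set, 14.5, was 4902 bp from the start of Atp5h, the d subunit of complex V. Otherwise the distal peaks were weak, with a median signal of 3.44 against 3.37 for all coding genes, and 11 of the 84 lay inside the member's own gene. The 6 peaks of Ndufb6 and the 6 of Ndufb9 all had signals of 4.07 or less, and those of Ndufb9 lay within Mtss1.

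The 3 X-linked members were low for the set. Ndufa1, Cox7b and Ndufb11 had percentiles of 50.6, 64.3 and 72.1, and their median of 64.3 compares with 85.5 for the 80 autosomal members. The 384 X-linked coding genes with a promoter peak had a median of 58.3, against 70.7 for all coding genes with one. Cox7b and Ndufb11 thus lay above the median of marked genes of their chromosome and Ndufa1 below it.

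The pools gave similar orders of the members. In pool I the median signal of the 75 marked members was 15.2 and in pool J 9.97, and 74 of 75 were higher in pool I. Over the 11906 coding genes with a promoter peak in both, 11019 (92.5%) were higher in pool I, against 98.7% of the members. The median ratio of pool I to pool J was 1.52 over the members and 1.4 over coding genes, and this difference was not tested. Spearman's rho between the pools was 0.861 over the 75 members and 0.882 over coding genes, given as a description over genes of 2 lists. The percentile differed by a median of 4.56 points over the 75 members and 4.27 over coding genes. It differed by more than 10 points at 7 of the 75 members and at 2067 of the 11906 coding genes. The largest difference among the members was that of Uqcrfs1, with percentile 57.7 in pool I and 76.9 in pool J. Atp5g1 had 88.3 and 69.8, Ndufb6 75.4 and 57.2, Ndufa9 83.5 and 67, and Ndufa7 71.7 and 57.9.

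**Figure D5:**
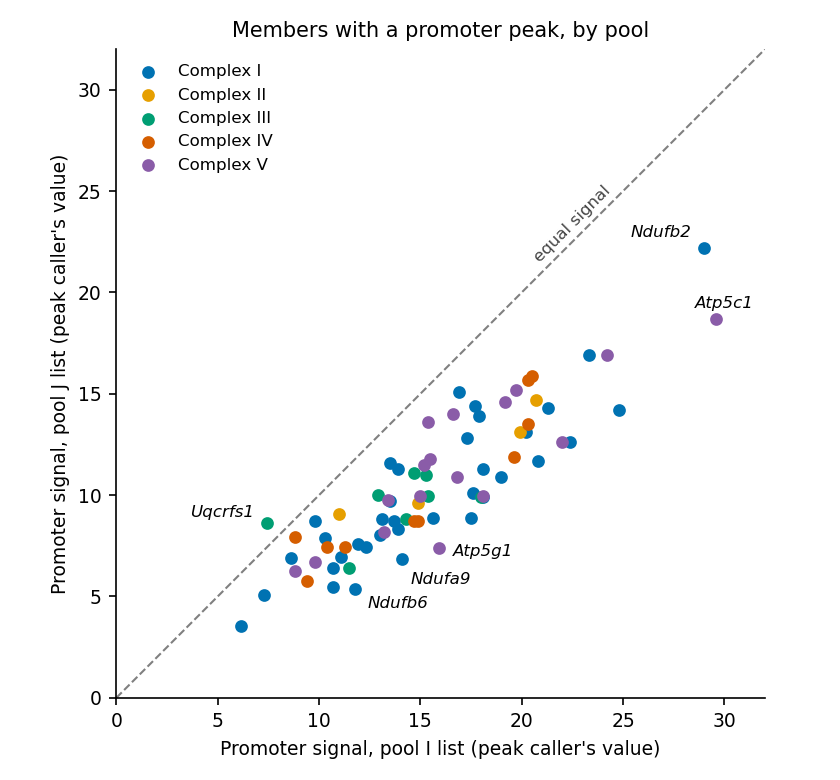
Promoter signal of the 75 marked members in the pool I list (x axis) and the pool J list (y axis), both as the peak caller's value, coloured by complex, with equal signal as a dashed line. Uqcrfs1 is the only member above the line, and Ndufb2 and Atp5c1 are the highest in both pools.

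Genes that build or control the complexes were marked as well. All 44 assembly factors listed had a promoter peak, with a median percentile of 71.5, near the 70.7 of coding genes with a peak and below the 83.2 of the subunits. The difference was not tested. Signals ran from 3.56 for Ndufaf6, a complex I assembly factor, to 24.7 for Cox20, a chaperone of complex IV. All 10 regulators had a promoter peak. Nrf1, the activator of nuclear respiratory genes, had 27.8, with 33 in pool I and 19.2 in pool J. It exceeded every subunit in the replicated list and in pool I, but not in pool J, where Ndufb2 had 22.2. Esrra, the oestrogen-related receptor alpha, had 14.7. Ppargc1a, the coactivator known as an inducer of mitochondrial biogenesis, had 4.65 in a peak of 2330 bp, at the median of all coding genes. Tfam, which packages mitochondrial DNA and activates its transcription, had 6.93, and Polrmt, the mitochondrial RNA polymerase, had 3.14.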

How the data were processed

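Peak lists on mm10 (GRCm38) were used as the authors deposited them. Per the labels' file descriptions, a replicated and a pseudoreplicated list came from both pools, and 1 pseudoreplicated list from each pool. The signal of a peak, its −log10 q and its summit offset are the values the authors deposited. Which aligner and peak caller were used, in which version, and how CAST/EiJ variants were handled was not given in the sources used here. Depth is unknown, so no counting interval was made.

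Genes came from GENCODE vM21 basic, with 34568 protein-coding, long non-coding and TEC genes and 55728 start sites on 19 autosomes and the X chromosome. Sequences came from RefSeq's GRCm38.p6. Python 3.11.15, numpy 2.4.6 and scipy 1.17.1 were used. The assignment of peaks was tested on simulated peaks at coding genes far from the starts of other genes. Shared promoters and promoters with several peaks were not part of that test. Coordinates are 1-based.

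Members, lists and motifs were chosen with earlier results of these data known, so no test was run and counts are set beside those of all coding genes. Named were the 10 highest signals, all unmarked members and isoforms, the 5 widest peaks, the 5 with most distal peaks, the 5 largest pool differences, the highest and lowest of each complex, complex II and the complex I core. A result under this rule is not reported here. Other genes were named after their values were seen. Protein sequences were not used here. Of 4 astrocyte and 3 oligodendrocyte markers, 3 and 2 had a promoter peak, and of 2 liver markers 1 did. Alternatives were 2 other promoter windows (500 and 2500 bp), the other lists, a −log10 q of at least 5, the 5′ start alone, another subunit list, shared promoters left out, the summit nearest to a start, and 2 other ways of counting distal peaks.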

Additional observations from a re-analysis of the deposited data

How the results depend on the processing

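The count of marked members was 75 in each of the 4 lists, with a window of 500 bp, at a −log10 q of at least 5 and with the 5′ start alone. With a window of 2500 bp it was 77, and 2 restricted isoforms, Cox7a1 and Ndufa4l2, had a peak. Without members whose start lies within 1 kb of another gene's start, 43 of 51 were marked and the median percentile was 81.5. Mean distal peaks per member were 0.458 at a −log10 q of at least 5 (0.789 over coding genes) and reached 6.67 with every distal peak within 100 kb (5.74 over coding genes).

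From the list of 1 pool alone, the mean of distal peaks ran from 0.578 to 0.904, the median percentile of complex I from 78.2 to 82.9, of complex II from 87.5 to 90.4, of complex III from 83.1 to 84.7, of complex IV from 68.2 to 69.9 and of complex V from 87.8 to 88.2. With the 5′ start alone the medians were 72 for complex IV and 89.3 for complex V. Complex V had 87.3 with a window of 500 bp, 89.7 with 2500 bp and 89.4 without the second Atp5o model, an alternative chosen after seeing the data. Of 92 alternative values of 10 results, 75 moved by less than the spread of the pools or, for counts, by less than 1.5 times. The cause of the other changes was not tested. That spread came from the lists of the single pools, which are also among the 92 values. Some alternatives could not change a result, as leaving out the second Atp5o model could not change complexes I to IV. The count of 75 is therefore no measure of how stable the results are. No paired analysis was possible because the samples form 1 group.

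The limits are that 2 pools give the only replication, that the depth of the lists is unknown, that a peak near several starts counts for each gene, and that the absence of a peak says only that none was called.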
